A study of Homo sapiens with 45 samples.

Results

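The genes described here are SYNC, SPNS2, SIRT2 and CHCHD5, 4 of the 23045 rows of the deposited tables. They were chosen by name from an earlier look at these same cells, as genes whose level was higher in fixed cells lysed with Triton than in the other cells. Their difference between those groups is therefore a description of what selected them and no test of it. Also described are how each gene was spread over single cells, the reads behind its values, its neighbours on the chromosome and its related genes. How far the choice drew on these is not known.

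All 45 profiles came from H1 cells taken singly at passage 40. H1 is a long-established line of human embryonic stem cells. They were either live, labelled DAPI-, or fixed, labelled DAPI+, and were prepared by FRISCR, which is designed to retrieve RNA from a single cell after fixation, or by lysis with the detergent Triton X-100 alone. The fixed Triton group held 7 cells, the live Triton group 11, the fixed FRISCR group 12 and the live FRISCR group 15, and the purpose named by the series was a proof of principle for FRISCR. They were sequenced after Smart-seq2 cDNA synthesis and Nextera XT library preparation, and a code in the titles splits each group into 2 library sets. The titles write RLT for the Triton cells and PLRC for the FRISCR cells, and the extraction protocol in the labels describes cortical tissue. The labels do not name a fixative for these cells or separate cultures, so each group is 1 sample, the cells are not replicates of a condition and no p-value was computed. Cells are numbered within a group as names only.

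SYNC encodes syncoilin, an atypical intermediate filament protein of striated muscle that binds desmin and the dystrobrevin of the dystrophin complex. SPNS2 encodes a membrane transporter that exports sphingosine 1-phosphate, a signalling lipid read by cell surface receptors, and is best known from endothelium. SIRT2 encodes an NAD-dependent deacetylase of the sirtuin family that is mostly cytoplasmic, acts on alpha-tubulin among other proteins, and is abundant in oligodendrocytes. CHCHD5 encodes a small protein of the mitochondrial intermembrane space with twin CX9C motifs, pairs of cysteines that form disulfide bonds on import. None of the 4 is a defining gene of embryonic stem cells.

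Total estimated counts per cell ranged from 3388417 to 4763278 in fixed Triton cells and from 3616109 to 6594043 in the others. Fixed Triton cells stood apart as a group. After each cell was thinned at random to 1000000 counts, they held 4134 to 6641 detected genes, against 8802 to 10246 in live Triton, 8004 to 9985 in fixed FRISCR and 8333 to 10330 in live FRISCR cells. The 7 embryonic stem cell markers (POU5F1, SOX2, NANOG, LIN28A, DNMT3B, TDGF1 and L1TD1) all reached 10 CPM in every group, where CPM is counts per 1000000 of a cell's or group's total. Their summed level per cell was 911 to 2226 CPM in fixed Triton cells and 2809 to 6261 CPM in the others. By total counts the median log2 fold of fixed over live Triton was -1.501. It was taken over the 7256 genes that reached 20 CPM in 1 or both groups. With TMM and median-of-ratios factors, 2 scalings described below, it was -0.874 and -0.254. Without the most abundant rows, of which TVAS5 reached 33.0% of a cell's counts, it was -0.912. A typical gene was thus lower in fixed Triton cells, by an amount that depended on the scaling. The part of this difference in the values below was not tested.

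The bases before the annotated start of a member are shown for 3 of the 4 genes, as the genomic context of genes that were picked as a group. They come from RefSeq on build GRCh38.p14, run 5′ to 3′ on the gene's strand and end at the base before the start. They lie at chr1:32702771-32703020 on the minus strand for SYNC, at chr19:38899619-38899868 on the minus strand for SIRT2 and, for the first of 3 annotated starts of CHCHD5, at chr2:112584197-112584446 on the plus strand. Capitals mark matches, on either strand, to GGGCGG (a GC box) or CCAAT. SPNS2 had no entry.
SYNC: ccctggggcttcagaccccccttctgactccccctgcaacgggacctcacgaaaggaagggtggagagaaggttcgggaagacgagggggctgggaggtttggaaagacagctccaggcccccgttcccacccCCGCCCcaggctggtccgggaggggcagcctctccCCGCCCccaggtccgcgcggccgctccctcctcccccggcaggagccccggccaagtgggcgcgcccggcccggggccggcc
SIRT2: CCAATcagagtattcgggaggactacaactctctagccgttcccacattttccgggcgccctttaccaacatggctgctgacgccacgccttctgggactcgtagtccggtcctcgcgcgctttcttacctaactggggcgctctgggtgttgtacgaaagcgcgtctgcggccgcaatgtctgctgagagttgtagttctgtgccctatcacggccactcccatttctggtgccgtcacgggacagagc
CHCHD5: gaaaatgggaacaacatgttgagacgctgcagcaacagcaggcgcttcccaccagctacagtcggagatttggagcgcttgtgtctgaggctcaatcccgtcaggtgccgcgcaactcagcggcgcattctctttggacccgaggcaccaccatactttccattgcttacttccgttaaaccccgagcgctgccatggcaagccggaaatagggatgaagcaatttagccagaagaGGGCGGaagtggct
The SYNC stretch held 2 matches to GGGCGG, that of CHCHD5 held 1, and that of SIRT2 held none and 1 match to CCAAT. None of the 3 held TATAAA. Over 35116 stretches of the same length in the table, 42.6% held GGGCGG, while CCAAT was in 32.01% of them and 10.7% held TATAAA. Matches to different motifs may share bases. The GC content was 74.4% for SYNC, 58.4% for SIRT2 and 55.6% for CHCHD5, against a median of 58.0% over the table. The 3 stretches therefore shared no one of these motifs, and 2 of the 3 had an ordinary base composition.

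Syncoilin was the one member for which every fixed Triton cell lay above every live cell by CPM, though not by TPM. SYNC stood at 273, 125, 2.36, 369, 102, 8.07 and 169.7 CPM in fixed Triton cells 1 to 7. In live Triton cells the lowest, median and highest levels were 0, 0.360 and 2.21 CPM, in fixed FRISCR cells 0, 0.767 and 2.60 CPM, and in live FRISCR cells 0, 0.418 and 1.92 CPM. Thus 5 fixed Triton cells stood at 102 CPM or more, while cells 3 and 6 were close to the other groups. The lowest fixed Triton cell exceeded the highest live Triton and live FRISCR cells by CPM but not the highest fixed FRISCR cell. By TPM, the authors' transcripts per 1000000 corrected for length, it fell within all 3, at 0.78 against highest values of 1.12, 1.14 and 1.01 TPM.

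The separation was one of level and much less of presence. SYNC had at least 1 count in 7 of 7 fixed Triton cells (exact Clopper-Pearson 95% interval 59.0% to 100%), in 7 of 11 live Triton cells (30.8% to 89.1%), in 7 of 12 fixed FRISCR cells (27.7% to 84.8%) and in 9 of 15 live FRISCR cells (32.3% to 83.7%). These intervals, like the others on shares of cells, treat the cells of a group as independent draws, though cells are not replicates. Intervals on levels and ratios cover counting error of reads only. None of them compares conditions. At 10 counts or more the cells numbered 6, 1, 1 and 1. The positive cells outside the fixed Triton group held 2 to 12 counts each, against 8 to 1476 in fixed Triton cells.

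Summed over the cells, SYNC stood at 151 CPM in fixed Triton, 0.605 in live Triton, 0.840 in fixed FRISCR and 0.647 in live FRISCR cells. The last 3 levels had overlapping Poisson intervals, from 0.422 to 1.12 CPM in all, so their order does not go beyond counting error. The ratio of fixed to live Triton was 250.2 (95% counting interval 179.6 to 359.7), that over fixed FRISCR 180.4 (135 to 247) and that over live FRISCR 234 (176 to 319). Both library sets held the high level, with 198 CPM in set 1 and 91.5 CPM in set 2. Within FRISCR the fixed to live ratio was 1.30 (0.845 to 1.99), an interval that includes 1.

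SPNS2, the sphingosine 1-phosphate exporter, was close to a matter of presence or absence. Fixed Triton cells 1 to 7 held 0, 104.8, 48.4, 89.3, 54.2, 107 and 6.16 CPM. No live cell held more than 1 count, with 3 of 11 live Triton and 2 of 15 live FRISCR cells having 1 count each. A single fixed FRISCR cell, cell 3, held 75 counts or 13.5 CPM, and the other 11 held none. Hence 6 of 7 fixed Triton cells lay above every live cell and 5 lay above every fixed FRISCR cell, while cell 1 had no read.

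The share of cells with a count was 85.7% in fixed Triton (42.1% to 99.6%), 27.3% in live Triton (6.02% to 61.0%), 8.33% in fixed FRISCR (0.211% to 38.5%) and 13.3% in live FRISCR cells (1.66% to 40.5%). The group levels were 59.7 CPM in fixed Triton, 0.0519 in live Triton, 1.37 in fixed FRISCR and 0.0275 CPM in live FRISCR cells. Because live Triton cells held 3 counts in all and live FRISCR cells 2, the ratios are loosely fixed, at 1151 (393 to 5588) and 2169 (599.6 to 17926). Over fixed FRISCR the ratio was 43.6 (34.6 to 55.8), and without fixed FRISCR cell 3 it was at least 981-fold against a floor of 3 counts over the group. The level was alike in both library sets of fixed Triton cells, at 62.0 and 56.8 CPM. Within FRISCR the fixed to live ratio was 49.7 (13.3 to 418). It rests on the 75 counts of fixed FRISCR cell 3 against 2 counts in live FRISCR cells.

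SIRT2, the tubulin deacetylase, differed from the other members in that its group level came from 2 cells. Fixed Triton cells 2 and 7 held 411 and 430.0 CPM, 1 from each library set, cell 6 held 1.31 CPM and cells 1, 3, 4 and 5 held 0. In live Triton cells, cells 3 and 6 stood at 19.9 and 12.9 CPM, and in fixed FRISCR cells, cells 3 and 4 stood at 30.3 and 45.2 CPM. In live FRISCR cells, cells 4, 8 and 13 stood at 23.3, 22.2 and 76.6 CPM. Each of these 3 groups had 1 further cell with 1 or 2 counts, and all their other cells were at 0. SIRT2 was thus found in a minority of cells in every group, and its median over cells was 0 in all 4.

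Its share of cells with a count was 42.9% in fixed Triton (9.90% to 81.6%), 27.3% in live Triton (6.02% to 61.0%), 25.0% in fixed FRISCR (5.49% to 57.2%) and 26.7% in live FRISCR cells (7.79% to 55.1%). In level, both high fixed Triton cells lay above every other cell of the series. The name given to the set, genes raised in fixed Triton cells, therefore rests for SIRT2 on 2 of 7 cells. Summed levels were 132 CPM in fixed Triton, 2.94 in live Triton, 6.88 in fixed FRISCR and 8.10 CPM in live FRISCR cells. The ratios were 44.9 (38.5 to 52.7), 19.2 (17.3 to 21.4) and 16.3 (15.0 to 17.8), intervals that do not include the spread over cells.

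Leaving out single cells showed how few carried these ratios. The ratio over live Triton was 26.4 without fixed Triton cell 2 and 93.5 without live Triton cell 3. Over fixed FRISCR it went from 11.3 without fixed Triton cell 2 to 39.2 without fixed FRISCR cell 4, and over live FRISCR from 9.58 without fixed Triton cell 2 to 37.9 without live FRISCR cell 13. In fixed FRISCR cells all SIRT2 counts came from library set 1, at 13.9 CPM, and set 2 had none in 6 cells. Within FRISCR the fixed to live ratio was 0.850 (0.745 to 0.969) over all cells and 2.23 in set 1.

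CHCHD5, the mitochondrial protein, was the only member found in nearly every cell of all groups. Fixed Triton cells 1 to 7 held 116, 120.5, 13.9, 67.1, 24.1, 115 and 101 CPM. The lowest, median and highest levels were 0, 15.7 and 27.7 CPM in live Triton, 3.02, 18.0 and 38.4 CPM in fixed FRISCR, and 8.84, 11.8 and 29.9 CPM in live FRISCR cells. Fixed Triton cells 1, 2, 4, 6 and 7 lay above every cell of the other groups, and cells 3 and 5 lay inside their ranges. A count was present in 7 of 7, 10 of 11, 12 of 12 and 15 of 15 cells.

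Summed levels of CHCHD5 were 84.0 CPM in fixed Triton, 13.8 in live Triton, 20.9 in fixed FRISCR and 14.1 CPM in live FRISCR cells. The Poisson intervals of both live groups overlapped (12.8 to 14.8 and 13.3 to 15.0 CPM), while that of fixed FRISCR cells lay above them (19.7 to 22.1 CPM). The ratios were 6.09 (5.62 to 6.61) over live Triton, 4.02 (3.75 to 4.32) over fixed FRISCR and 5.95 (5.53 to 6.41) over live FRISCR. Within FRISCR the fixed to live ratio was 1.48 (1.36 to 1.61), with 1.77 in library set 1 and 1.26 in set 2. By library set the fixed Triton level was 84.5 and 83.3 CPM, the closest of any member.

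**Figure D1:**
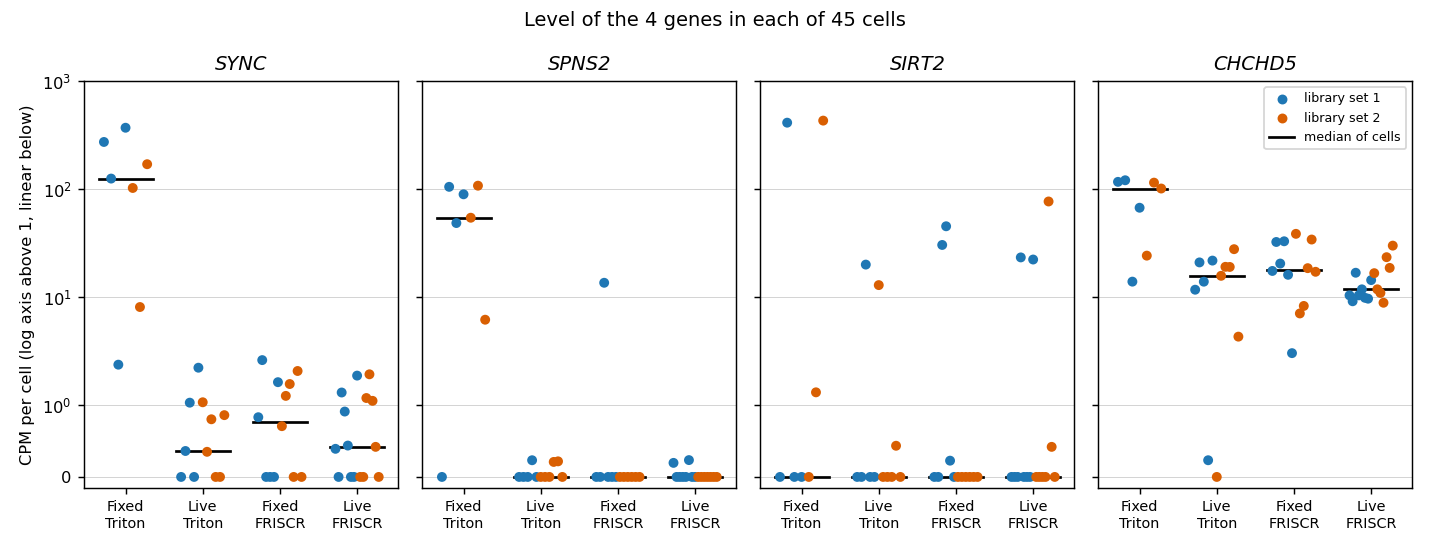
Level of each gene in CPM (vertical axis, logarithmic above 1 and linear below) in each cell of the 4 groups (horizontal axis), with a point per cell coloured by library set and a black line at the median of the cells. SYNC and CHCHD5 have most fixed Triton points above the other groups, SPNS2 is at or near 0 outside fixed Triton cells save for 1 fixed FRISCR cell, and SIRT2 has 2 high fixed Triton points.

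The 4 genes were not high in the same fixed Triton cells. Cells 2 and 7 held at least 10 counts of all 4 members, cells 4, 5 and 6 held 3 and cells 1 and 3 held 2. Cell 1 had SYNC at 273 CPM with SPNS2 and SIRT2 at 0, cell 6 had SPNS2 at its highest, 107 CPM, with SYNC at 8.07 CPM, and cell 3 had no member above 48.4 CPM. Cell 3 was also the fixed Triton cell with the most detected genes, 6641 after thinning. In the other groups no live cell held 10 counts of more than 2 members, and 1 fixed FRISCR cell, cell 3, held 3.

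Per transcript length, which allows genes to be compared, CHCHD5 was the highest member in 5 of the 7 fixed Triton cells. By the deposited values CHCHD5 stood between 27.99 and 224 TPM there, SYNC between 0.78 and 140 TPM and SPNS2 between 0 and 27.0 TPM. SIRT2 stood at 227 and 257 TPM in its 2 high cells, above CHCHD5 in both. Ranked by TPM within the cell, SIRT2 was gene 578 in cell 2 and gene 490 in cell 7, SYNC was at best gene 690, in cell 4, and CHCHD5 at best gene 461, in cell 1.

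**Figure D2:**
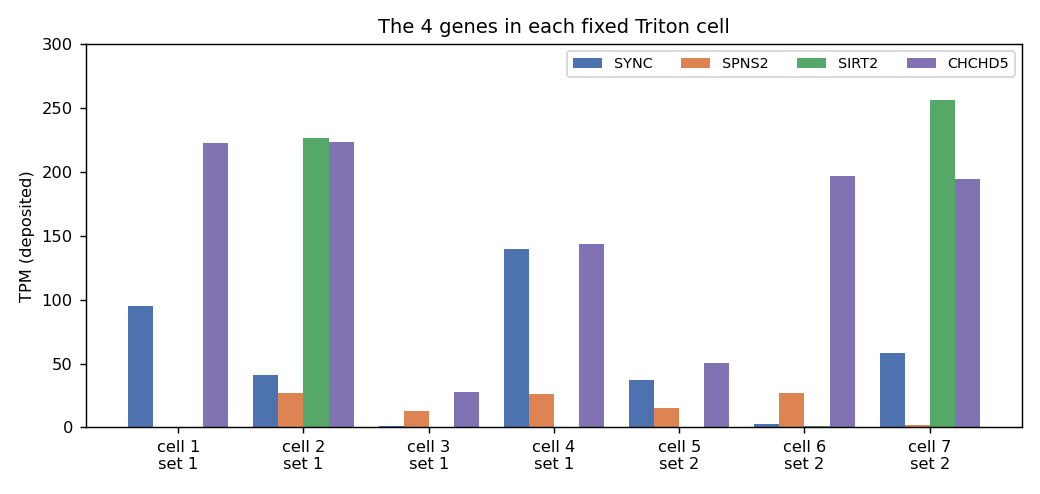
Deposited TPM (vertical axis) of the 4 genes as bars in each of the 7 fixed Triton cells (horizontal axis, with the library set under each cell). SIRT2 bars are visible in cells 2 and 7 only, and CHCHD5 is present in all 7 cells.

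Uneven presence was common among all genes of such a level in fixed Triton cells. For 1697 genes at 50 to 200 CPM in that group, the median gene had a count in 6 of 7 cells and drew 81.1% of its counts from its 2 highest cells. In live Triton cells, with 2876 such genes, the median gene drew 33.0% from 2 of 11 cells. The 2 highest fixed Triton cells held 60.01% of the SYNC counts, 56.9% of the SPNS2 counts, 99.8% of the SIRT2 counts and 44.9% of the CHCHD5 counts. SIRT2 was on the concentrated side of its level class, with 87.6% of genes having a lower share, while CHCHD5 was among the most even genes, with 1.12% having a lower share. SYNC, at 15.3%, and SPNS2, at 11.4%, were also spread more evenly than most. This measure was added after the data were seen. The members were chosen as raised in these cells and the other genes were not, so nothing is read from the comparison.

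**Figure D3:**
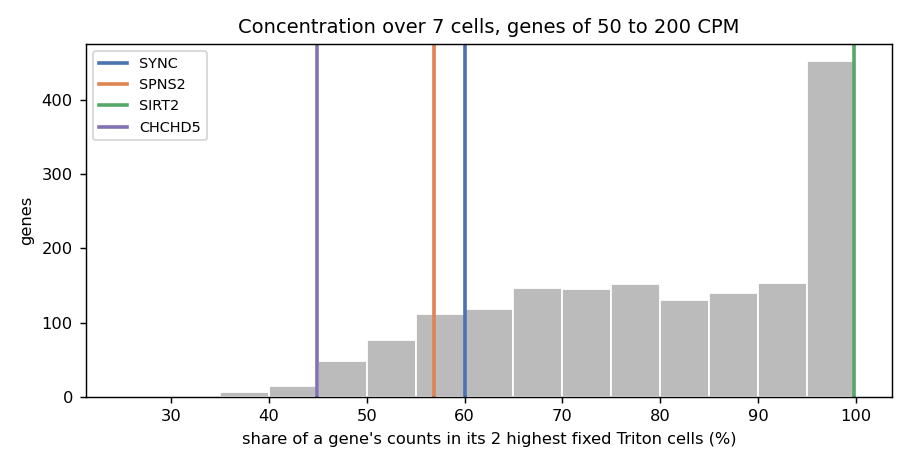
Histogram of genes at 50 to 200 CPM in fixed Triton cells (vertical axis, number of genes) by the percentage of their counts that lay in their 2 highest cells (horizontal axis), with a coloured line for each member. CHCHD5, at 44.9%, lies at the even end and SIRT2, at 99.8%, at the concentrated end.

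Set beside all genes, the ratios of the 4 members were at the upper end, where their choice had put them. All 4 were at least 2-fold higher in fixed than in live Triton cells, as were 12.4% of the 7256 genes that reached 20 CPM, and all 4 were at least 5-fold higher, as were 3.29%. Over fixed FRISCR all 4 were at least 2-fold higher (10.6% of genes) and 3, all but CHCHD5, at least 5-fold higher (3.07%). Over live FRISCR all 4 passed 2-fold (11.3%) and 5-fold (2.85%). SYNC alone had every fixed Triton cell above every live Triton cell, a property of 0.992% of genes, and above every live FRISCR cell, a property of 1.04%. No member had it against fixed FRISCR, where 0.619% of genes did. These 3 comparisons share the fixed Triton cells, and since the members were selected on them nothing is read from the shares.

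**Figure D4:**
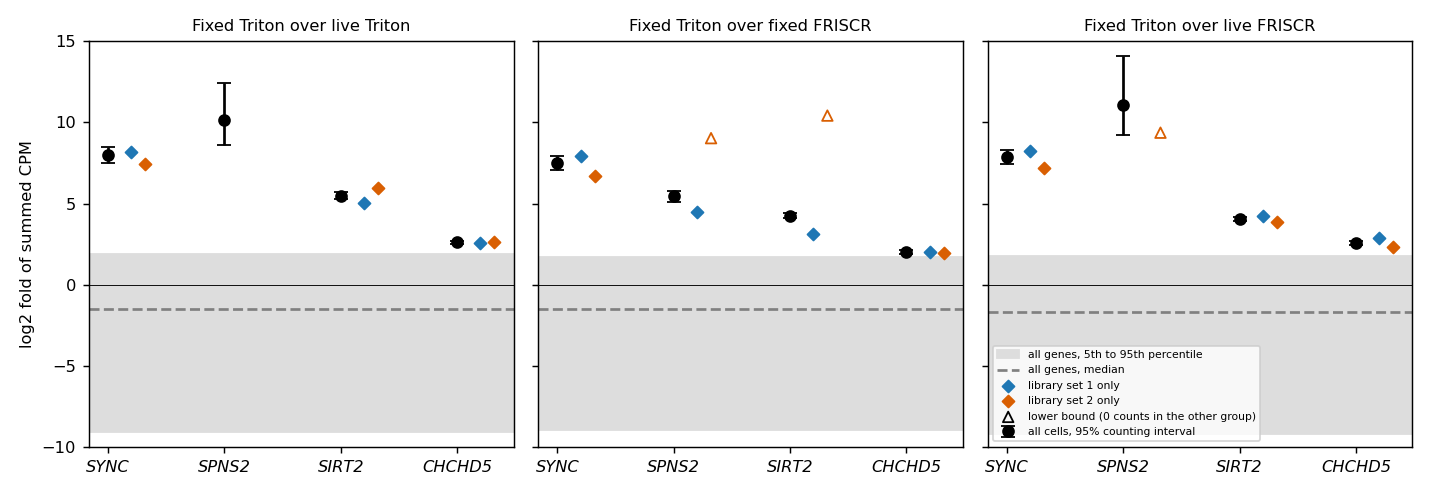
Log2 ratio of summed CPM (vertical axis) of fixed Triton cells over each other group (one panel each) for the 4 genes. Black points carry 95% counting intervals, and diamonds stand for each library set. Triangles are lower bounds where that library set of the other group had 0 counts. Diamonds are left out where the other group had 1 to 3 counts over all its cells. The grey band spans the 5th to 95th percentile of all genes and the dashed line is their median, -1.501 over live Triton cells.

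By a scale of genes common to all cells, the reads of SYNC, SPNS2 and SIRT2 were assigned to transcripts of nearly one length. This covers the cells with at least 10 counts. The count of a gene divided by its TPM in the same cell follows the transcript length used, and was expressed relative to the median of the 774 genes with at least 10 counts in all 45 cells, a scale added after the data were seen. This relative length was 1.48 to 1.49 for SYNC over 9 cells, 1.89 to 1.92 for SPNS2 over 7 and 0.857 to 0.885 for SIRT2 over 9. For CHCHD5 it was 0.241 to 0.277 over 43 cells. The planned scale, the median of the genes with at least 10 counts in each cell, gave wider ranges for SYNC and SPNS2. On it the relative length was 1.13 to 1.26 for SYNC and 1.49 to 1.62 for SPNS2. It was 0.679 to 0.738 for SIRT2 and 0.197 to 0.222 for CHCHD5. Of the SYNC cells 6 were fixed Triton cells, as were 6 of the SPNS2 cells and 2 of the SIRT2 cells, so the comparison between groups rests on few cells for SYNC and SPNS2. GENCODE release 29 lists 4 transcripts for SYNC, 8 for SPNS2, 19 for SIRT2 and 5 for CHCHD5.

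Most SYNC values were not whole numbers, in 29 of 30 nonzero values (96.7%), against 40.3% of all nonzero values in the table. The same held for 6 of 12 SPNS2 values, 1 of 13 SIRT2 values and 2 of 44 CHCHD5 values. An estimated count that is not whole can arise where reads are divided between features, and how they were divided is not given in the sources used here. By the RefSeq gene table of GRCh38.p14, used for gene order alone, SYNC overlaps RBBP4 on the opposite strand and SPNS2 overlaps MYBBP1A on the opposite strand. The strand of the libraries is not given in the sources used here, and without it reads of overlapping genes cannot be told apart. The levels of SYNC and SPNS2 are uncertain to that extent.

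RBBP4 encodes a histone-binding protein of chromatin complexes, and all its nonzero values, in 45 of 45 cells, were likewise not whole. It stood at 13.0, 7.14, 311, 8.26, 111, 431 and 179.5 CPM in fixed Triton cells 1 to 7, and at 387 to 737 CPM in live Triton cells. In fixed Triton cells 1, 2 and 4, SYNC was at least 125 CPM and RBBP4 at most 13.0 CPM, and in cells 3 and 6 RBBP4 was at least 311 CPM and SYNC at most 8.07 CPM, while cells 5 and 7 held at least 102 CPM of both. Summed, RBBP4 was 149 CPM in fixed Triton against 575 in live Triton cells, a ratio of 0.260. Over the 7 cells SYNC was thus not proportional to RBBP4, which was highest in cells 3 and 6, where SYNC was lowest. How reads were divided between the 2 genes was not tested.

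MYBBP1A, which encodes a nucleolar protein, was at 2.68 CPM in fixed Triton against 55.7 CPM in live Triton cells, below SPNS2 in the first group and above it in the second. Only 3 of 7 fixed Triton cells had a MYBBP1A count, and none of them exceeded 8.61 CPM. In these, cells 2, 3 and 4, the estimated counts of both genes were not whole. They were 41.15, 16.62 and 19.53 for MYBBP1A and 498.85, 164.38 and 357.47 for SPNS2. In cells 5, 6 and 7 SPNS2 was whole and MYBBP1A was at 0. MYBBP1A is thus not a separate measure beside SPNS2, and how reads were divided between these genes was not tested. SPNS3, the related gene next to SPNS2, had no count in any of the 4 groups. UBE2G1, on the far side of SPNS3, was at 67.3 CPM in fixed and 182 CPM in live Triton cells, and GGT6 at 3.36 and 2.06 CPM. The high SPNS2 level was not shared by its measured neighbours.

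SIRT2 lay beside genes that were also higher. RINL, close to SIRT2 on the same strand, stood at 30.7 CPM in fixed and 4.77 CPM in live Triton cells (ratio 6.44). HNRNPL, next to RINL, also on that strand and encoding a splicing regulator, stood at 609 and 99.7 CPM (ratio 6.11). HNRNPL was high in single cells throughout, at 996, 906, 156, 500.2, 388, 451 and 712 CPM in fixed Triton cells 1 to 7, against 58.3 to 187 CPM in live Triton cells, so that only cell 3 overlapped that range. Without fixed Triton cell 1 the RINL ratio was 1.53. RINL stood at 166 CPM in that cell, which had no SIRT2, and was at 2.31 and 6.39 CPM in cells 2 and 7, where SIRT2 was high. On the other side NFKBIB, close to SIRT2 on the opposite strand, and SARS2 were lower in fixed Triton cells, with ratios of 0.492 and 0.258. HNRNPL was at 906 and 712 CPM in those 2 cells and highest in cell 1. The part of reads from neighbouring genes in the SIRT2 values was not tested.

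Of the 4 neighbours of CHCHD5, 3 had less in the fixed Triton group than in the live one. POLR1B, an RNA polymerase I subunit gene, was at 0.103 CPM in fixed Triton cells, from 3 counts, and at 111 CPM in live Triton cells. TTL was at 9.78 and 18.4 CPM and SLC20A1 at 50.4 and 213 CPM, while CKAP2L was at 61.5 and 32.8 CPM. All CKAP2L counts of fixed Triton cells came from cell 2, and without it the level was 0. Beside SYNC, ZBTB8OS was at 36.1 and 35.8 CPM, KIAA1522 at 2.09 and 26.4 CPM and YARS at 111 and 338 CPM. By total counts 2 of the 16 neighbours, HNRNPL and RINL, were at least 2-fold higher in fixed Triton cells. With TMM factors, a scaling described below, 4 were, GGT6 and CKAP2L being added. With median-of-ratios factors 5 were, ZBTB8OS being added too. Of all genes that reached 10 CPM, 12.5% were 2-fold higher by total counts. With TMM factors 20.4% were, and with median-of-ratios factors 28.9%. The neighbours were held to no such minimum, and GGT6 and SPNS3 lay under it. The shares are therefore not on like sets, and nothing is read from them.

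**Figure D5:**
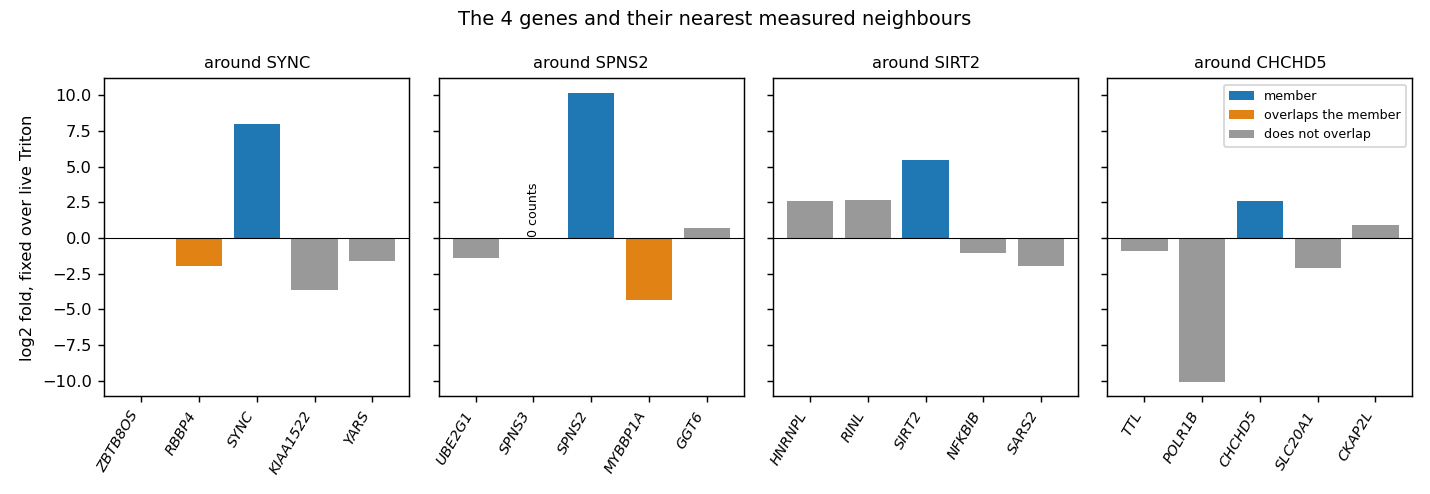
Log2 ratio of summed CPM in fixed over live Triton cells (vertical axis) for each member, in blue, and its 2 nearest measured genes on each side in chromosome order (horizontal axis), in orange where they overlap the member. HNRNPL (2.61) and RINL (2.69) beside SIRT2 are the neighbours with the highest values, and the POLR1B bar rests on 3 fixed Triton counts.

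Genes related to the members were looked at in 5 lists. Over 9122 genes with at least 10 CPM in fixed or live Triton cells, 12.5% were at least 2-fold higher and 59.7% at least 2-fold lower in fixed Triton cells, with a median log2 ratio of -1.62. Of 17 genes of intermediate filaments and the dystrophin complex, 14 reached 10 CPM, of which 1 was 2-fold higher and 11 were 2-fold lower, with a median of -2.24. The simple epithelial keratins KRT18 and KRT8 had log2 ratios of -2.06 and -1.46, vimentin (VIM) -0.71, and the linker protein plectin (PLEC) 1.04. Without fixed Triton cell 6 PLEC was lower, at a ratio of 0.363. Dystrophin (DMD) had 0.0343 CPM in fixed Triton cells, 1 count, against 17.8 CPM in live Triton cells. Desmin (DES), the partner of syncoilin in muscle, had no count in fixed Triton cells.

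Of 16 genes of sphingosine 1-phosphate production, breakdown and sensing, 8 reached 10 CPM, of which 2 were 2-fold higher and 5 were 2-fold lower (median -2.02). Both higher genes were receptors. S1PR3 stood at 57.0 against 9.65 CPM, with a count in 6 of 7 fixed Triton cells, and S1PR5 at 31.6 against 0.381 CPM, with all its fixed Triton counts in 1 cell. Without fixed Triton cell 2 S1PR3 was at 1.80 CPM, below its live Triton level, and without cell 7 S1PR5 was at 0. Another receptor gene, S1PR2, was lower, at 19.0 against 73.7 CPM. The lyase gene SGPL1, whose product breaks the lipid down, stood at 0.789 against 210.5 CPM, and the ceramidase gene ACER3 had no count in fixed Triton cells against 31.7 CPM in live Triton cells. The kinase genes that make the lipid were low, with SPHK1 at 0 in both Triton groups and SPHK2 at 2.54 against 12.6 CPM.

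Of the 6 other sirtuins 3 reached 10 CPM, with 1 at least 2-fold higher, 1 at least 2-fold lower and a median log2 ratio of -0.50. The mitochondrial sirtuin SIRT3 was at 16.3 against 6.90 CPM, the mitochondrial SIRT5 at 39.3 against 55.5 CPM and the nuclear SIRT1 at 0.515 against 15.2 CPM. Without fixed Triton cell 4 SIRT3 was at 1.43 CPM, below its live Triton level. The 5 genes of alpha-tubulin and its acetylation were all at least 2-fold lower, with a median of -2.12. The tubulin genes TUBA1B, TUBA1A and TUBA1C had log2 ratios of -2.12, -2.24 and -1.87. ATAT1, the acetyltransferase gene, had -1.73, with all its fixed Triton counts in 1 cell. The other tubulin deacetylase gene, HDAC6, was at 0.103 CPM, 3 counts, against 34.3 CPM. SIRT2 itself had a log2 ratio of 5.49, from its 2 high cells.

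By total counts the twin CX9C genes were the one list whose median lay above 0. Of 20 genes, 18 matched a row and 16 reached 10 CPM, of which 4 were at least 2-fold higher and 3 at least 2-fold lower, with a median log2 ratio of 0.42 beside -1.62 for all genes. The 4 were CMC1 (1.77) and COX17 (1.30), which serve cytochrome oxidase assembly, and COX6B1 (1.73) and UQCRH (1.09), subunits of the respiratory chain. Without the highest fixed Triton cell of each, their ratios were 2.28, 1.92, 2.71 and 1.85, so that COX17 and UQCRH were under 2-fold. NDUFS5, a complex I subunit gene, had 1.00, and COX19 had the lowest value, -2.18. CHCHD5, with 2.61, was above all 16. It was chosen for a high level in fixed Triton cells, so nothing is read from that place.

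The counts in these lists depend on how cells are made comparable. TMM factors moved the all-genes median of the fixed over live Triton ratio by 0.63 on the log2 scale and median-of-ratios factors moved it by 1.25, and every ratio moves with it. Of all 9122 genes, 20.4% were then at least 2-fold higher and 49.9% at least 2-fold lower with TMM factors, and 28.9% and 41.8% with median-of-ratios factors. Under the latter the twin CX9C list had 10 genes 2-fold higher and 0 lower, alpha-tubulin acetylation 0 higher and 1 lower, and the intermediate filament list 2 higher and 7 lower. VIM, TTL and NFKBIB (0.53, 0.34 and 0.22) then lay above 0, as did SIRT5 (0.75), which with the sirtuin median was above 0 under TMM factors too (0.13). Since all ratios move by the same amount, the order of the list medians cannot depend on the scaling. The counts of genes past 2-fold do depend on it.

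Markers of muscle and endothelium, where SYNC and SPNS2 are best known, and of 2 further cell types were looked for in the same cells. None of 5 skeletal muscle markers (DES, MYOD1, MYOG, ACTA1 and CKM) had a count in fixed Triton cells. Of 5 endothelial markers only PECAM1 had a count there, at 0.823 CPM, with CDH5, TEK, TIE1 and ERG at 0, and the summed level per cell was 0 to 1.96 CPM against 0.353 to 182 CPM in live Triton cells. Of 5 fibroblast markers COL3A1, DCN and LUM were at 0 in all groups, and COL1A1 and COL1A2 reached 10 CPM in all groups, with summed levels of 0 to 102 CPM per fixed Triton cell and 0 to 528 CPM in the others. Of 5 neural progenitor markers SOX1 and HES5 were at 0 in all groups, and FABP7 was the only one above 10 CPM in fixed Triton cells, with sums of 0 to 169.6 CPM there and 8.52 to 221 CPM elsewhere. The part of the collagens and FABP7 in the members' levels was not tested.

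The genes whose level over the 45 cells was most like each member were found among 6626 genes averaging 20 CPM or more. The measure was Spearman's rho, as a description over cells that share groups, library sets and depth. For SYNC these were NDUFB4 (0.53), LOC100272146 (0.52) and ARL2 (0.51), for CHCHD5 SERF2 (0.59), PRDX4 (0.57) and EIF4EBP2 (0.57), and for SIRT2 C6orf108 (0.46), PTPRS (0.45) and ATP6V1F (0.43). For SPNS2 they were 3 rows named for ribosomal RNA, with 0.56, 0.51 and 0.49. The first of these stood at 100.7 CPM in fixed Triton, 11.9 in live Triton, 0.292 in fixed FRISCR and 0.757 CPM in live FRISCR cells, so that it was higher in both Triton groups. By Pearson's r of log2(CPM + 1) only PTPRS and ATP6V1F remained, beside SIRT2, and the leading gene for SYNC was HNRNPL, with 0.88. Between the members themselves rho was 0.11 to 0.30. SPNS2 had a nonzero value in 12 and SIRT2 in 13 of the 45 cells. Each rho of these 2 genes is therefore taken over many cells tied at 0.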

How the data were processed

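The authors deposited 2 tables with 1 column per cell, one of estimated counts per gene, not normalized, and one of TPM, scaled by the authors for length and depth. Per the submitters' processing notes the genome was GRCh37 (hg19). The aligner, quantifier, annotation and library strand were not given in the sources used here. Reads carry no molecular identifiers. Estimates were rounded to integers, and all 45 cells were kept. CPM was computed from each cell's total, or from counts summed over a group and its summed total. Ratios carry exact 95% intervals from the binomial split of both counts, levels exact Poisson intervals and shares of cells Clopper-Pearson intervals, and a sum of 0 in a ratio was set at 3 counts over the group. The ratios and their intervals were tested on simulated counts that held counting error alone. The simulated counts had no spread between cells, so the test does not cover genes held by few cells.

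Groups follow the labels, and cells were numbered in accession order. Neighbours are the 2 nearest measured genes on each side and any overlapping gene. The rule for named genes took the 4 members, their neighbours, the 3 genes most like each and, from each related list, the 3 most abundant and the most extreme each way. COX17, DES, SPHK1 and SPHK2 were named after their values were seen. The oligodendrocyte marker list is not reported here. The members and lists were chosen with earlier results of these data known. Alternatives used TMM (edgeR 4.0.16) and median-of-ratios factors (DESeq2 1.42.0, R 4.3.3), means and medians of cells, TPM, single library sets, other count minimums, totals without abundant rows and each cell left out. The promoter stretches, the FRISCR ratios, the common-gene length scale, the spread over the 2 highest cells the all-genes median and shares per scaling and the ratios without a gene's highest cell were added after the data were seen. Python 3.11.15 with scipy 1.17.1 did the rest.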

Additional observations from a re-analysis of the deposited data

How the results depend on the processing

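The counts of members at least 2-fold or 5-fold higher did not move by over 1.5 times under any alternative run. With 4 members, the loss of 1 stays within that bound. Over live Triton, 4 became 3 at both folds by cell medians, where SIRT2 had no ratio. By mean TPM 4 became 3 at 5-fold, with CHCHD5 at 3.66. The count of members with every fixed Triton cell above every other cell was 1 against live Triton and 0 by deposited TPM, and 1 against live FRISCR and 0 by TPM. Leaving out 1 cell at a time gave 1 to 2 against live Triton, with 2 without fixed Triton cell 1, 0 to 1 against fixed FRISCR, with 1 without fixed Triton cell 3 or fixed FRISCR cell 2, and 1 to 2 against live FRISCR, with 2 without fixed Triton cell 1. Members with a count in every fixed Triton cell numbered 2, and 1 at a minimum of 10 counts or after thinning to 300000 counts.

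The size of the ratios moved more. Over live Triton cells SYNC was 386 with TMM factors, 594 with median-of-ratios factors and 167 from mean TPM, SPNS2 1778, 2732 and 303, SIRT2 69.4, 107 and 26.4, and CHCHD5 9.41, 14.5 and 3.66. TMM factors multiplied each of these ratios by 1.54 and median-of-ratios factors by 2.37. What moved the TPM ratios was not tested. SIRT2 gave no ratio of medians, since both were 0. Without 1 cell SPNS2 reached 4083 over live FRISCR, without live FRISCR cell 6. No paired analysis was possible because the cell numbers follow accession order and pair no cells. The SPNS2 ratios over live groups rest on 2 or 3 counts.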
